A study of Mus musculus with 10 samples.

Results

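Transcripts that mark astrocytes, oligodendrocytes, neurons and neural progenitors were followed in RNA from endothelial cells purified out of mouse gliomas. The set holds 31 genes, taken by symbol from a table of 23238 genes. It has 8 astrocyte genes, 9 genes of the oligodendrocyte lineage, 8 neuronal genes and 6 genes of neural progenitors and glioma. All 31 symbols had a row. The genes were picked as markers of the brain and tumour cells that surround the vessels, whose RNA can be carried along with the endothelial fraction.

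Tumours were grown from GL26l, a mouse glioma line, injected into the brain of congenic mice on the C57BL/6 background. Endothelial loss of Sox7 or Sox17 came from Sox7fl/fl or Sox17fl/fl alleles and the Cdh5(BAC)-CreERT2 driver, in which a VE-cadherin promoter makes a tamoxifen-dependent recombinase in endothelium. Per the design text, experimental mice received tamoxifen at 20 mg/kg. The alleles, driver and treatment of the controls, the age of the animals, and whether animals were pooled are not given in the sources used here. The Sox7 arm has 2 control and 2 deficient libraries, and the Sox17 arm has 3 of each. Libraries of an arm that share a number (1, 2 or 3) are called a set here, and each arm has its own controls. No label ties a library to its own animal. The p-values therefore reflect the spread among these libraries, part of which may be technical.

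Brain capillaries are wrapped by the end-feet of astrocytes, which take up glutamate and potassium around the vessel. Oligodendrocytes make myelin, their precursors divide along vessels, and neurons lie close by. Glioma cells share many transcripts with neural progenitors. A few of the markers are also made by endothelium: glutamine synthetase (Glul), connexin 43 (Gja1) and the intermediate filament nestin (Nes) are examples.

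Total counts ran from 2082305 (Sox17 control 1) to 35068802 (Sox17-deficient 2). Levels are in CPM, the count scaled to a common library size by TMM and given per megaread. The detection floor, 3 counts, lay between 0.0846 CPM (deepest library) and 1.36 CPM (shallowest). Such floors cover counting error only, since no molecular identifiers are mentioned. CPM is not scaled to transcript length, so levels are compared within a gene or a fixed gene list. Endothelial identity was present throughout: 18 of 18 pan-endothelial genes reached the floor in every library, with a summed level of 11472 to 22032 CPM. The deleted gene was at 1.11% to 11.3% of the control CPM in the 5 sets. Macrophage and microglia genes (18 genes) summed to 46.3 to 1144 CPM in 9 libraries and to 19195 CPM in Sox7-deficient 1.

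The 31 glial, neuronal and progenitor transcripts made up a small share of the RNA. Their summed level was lowest in Sox17-deficient 3 at 662 CPM and highest in Sox7-deficient 2 at 2565 CPM, which is 0.0662% and 0.256% of the scaled counts. Only 6 members reached 3 counts in every library: the astrocyte genes Slc1a2, Gja1, S100b and Glul, the myelin-lineage gene Cnp and the progenitor gene Nes. At the other end, 15 members reached the floor in 5 libraries or fewer. Mog, which encodes a protein of the outer myelin surface, was at 0 in all 10 libraries. The number of members at the floor was lowest in the shallowest library, at 10, where 18 members were at 0. Beyond that library it did not follow depth. It was 16 in the deepest, and 22 in Sox7-deficient 1, which had 9207072 counts.

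**Figure D1:**
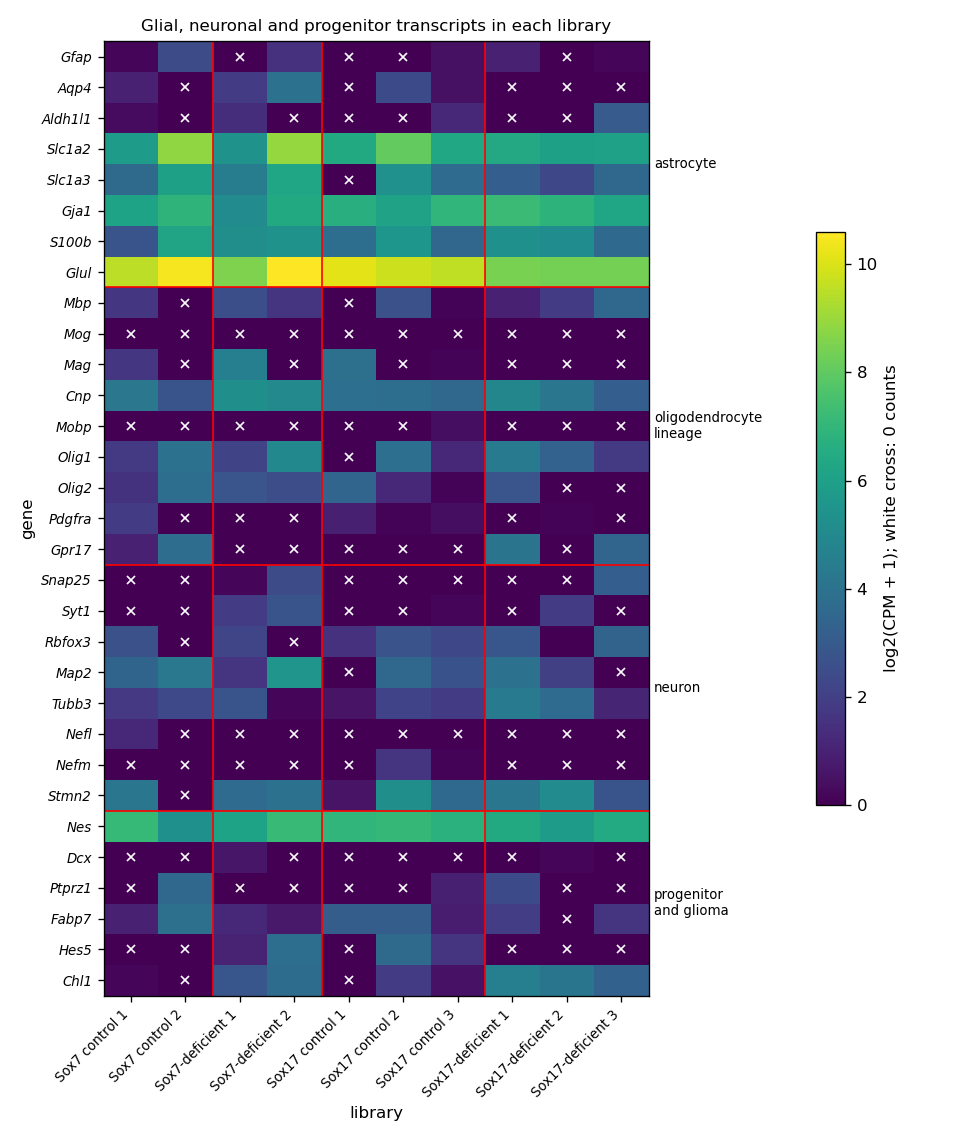
Level of each of the 31 transcripts (rows, grouped by class) in the 10 libraries (columns, ordered by group), as log2(CPM + 1). White crosses mark 0 counts. Glul, Gja1, Slc1a2 and Nes are present in every column, while Mog has a cross in all 10.

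Many members were at 0 in one library and well above the floor in another of the same group. Of 310 values (31 genes in 10 libraries), 116 were 0, 16 were 1 or 2 counts and 133 were 30 counts or more. The share at 0 was 37.4% for all 31 members and 26.8% for the members that passed the filter on low counts. Over the 13040 genes that passed it, the share was 11.8%. In 16 members a library with 0 counts and a library with 30 or more stood in the same group. Among all genes tested that share was 33.1%, and 25 members passed the filter. Gpr17 is an example, with 114, 0 and 80 counts in Sox17-deficient sets 1, 2 and 3. The source of these gaps, technical or not, was not tested. In bulk RNA, fewer carried-over cells and less RNA per cell cannot be told apart.

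No member passed the test in any comparison. In edgeR's quasi-likelihood test with Benjamini-Hochberg adjustment over 13040 genes, 0 of the 25 filtered members had an adjusted p under 0.05 for Sox7 loss and 0 of 25 for Sox17 loss. Over all genes the share called was 0.0% in each direction in both comparisons. The deleted genes, at 1.11% to 11.3% of the control CPM, were thus not called either. The fitted coefficient of variation common to all genes was 0.989. The absence of a call therefore does not show that a member was unchanged. At an unadjusted p under 0.05 there were 3 members for Sox7 loss and 6 for Sox17 loss, where the shares over all genes were 1.5% and 3.52%. They included Gpr17 and Hes5 for Sox7 loss and Aqp4, Mag, Gpr17 and Hes5 for Sox17 loss, each with a whole group at 0. Such members passed the filter through other libraries, so these counts describe the 25 and carry no test. DESeq2 called 0 members, where it called 3 genes for Sox7 loss (0.0235%) and 29 for Sox17 loss (0.228%). It gave 1 member no adjusted p. Limma-voom called 0 members and 0.0% of all genes. The 6 genes that did not enter the test were Mog, Mobp, Pdgfra, Nefl, Nefm and Dcx. The highest level that any of these 6 reached was 2.63 CPM, for Pdgfra in Sox7 control 1.

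The classes were next summed over their members in each library, without a test. The astrocyte sum was lower in the deficient library of all 3 Sox17 sets. It was at 1331, 1312 and 985 CPM in Sox17 controls 1, 2 and 3 and at 635, 549.6 and 508 CPM in the deficient libraries. The mean log2 ratio over the sets was −1.09 ± 0.152 (SD, n = 3). Glul took 56.1% to 85.1% of the sum in the 10 libraries. Without Glul the sum was 198 and 279 CPM in control and deficient library of set 1, 421 and 216 CPM in set 2, and 228 and 171 CPM in set 3. That remainder was lower in sets 2 and 3 and higher in set 1, with a mean log2 ratio of −0.30 ± 0.737 (SD, n = 3). In the Sox7 arm the astrocyte sum of set 1 was 898 CPM (control) and 516 CPM (deficient), and that of set 2 was 2132 and 2258 CPM. Thus the Sox7 groups overlapped.

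The sum of the oligodendrocyte lineage was higher in the deficient library of 4 of 5 sets. In the Sox7 arm it was 29.5 and 46.3 CPM in controls 1 and 2, and 74.6 and 66.8 CPM in the deficient libraries, so the groups did not overlap. Without Cnp these sums were 12.3 and 40.6 CPM in controls and 37.2 and 36.5 CPM in deficient libraries, which overlap. Further lists were read beside it. Macrophage genes had a positive fitted fold change for Sox7 loss in 17 of 17 tested and pan-endothelial genes a negative one in 16 of 18 (0 called in each). From control to deficient library, the macrophage sum was 1144 and 19195 CPM in Sox7 set 1 but 431 and 158 CPM in set 2. The pan-endothelial sum was 19492 and 11472 CPM in set 1 and 16898 and 16060 CPM in set 2. The highest macrophage sum and the highest oligodendrocyte sum were both in Sox7-deficient 1. Their part in the oligodendrocyte difference was not tested. For Sox17 the oligodendrocyte sum was 38.5, 33.5 and 13.3 CPM in controls and 70.4, 28.7 and 31.2 CPM in deficient libraries, which overlap. The neuronal sum ran from 2.72 CPM in Sox17 control 1, the shallowest library, to 69.8 CPM in Sox7-deficient 2. It was higher in 1 of 2 Sox7 sets and 2 of 3 Sox17 sets. The progenitor sum was lower in all 3 Sox17 sets, at 134, 155 and 112 CPM in controls and 115, 71.1 and 98.4 CPM in deficient libraries. Without Nes, which held 61.2% to 99.2% of that sum, the mean log2 ratio was 0.97 ± 1.23 (SD, n = 3), against −0.51 ± 0.534 with it.

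**Figure D2:**
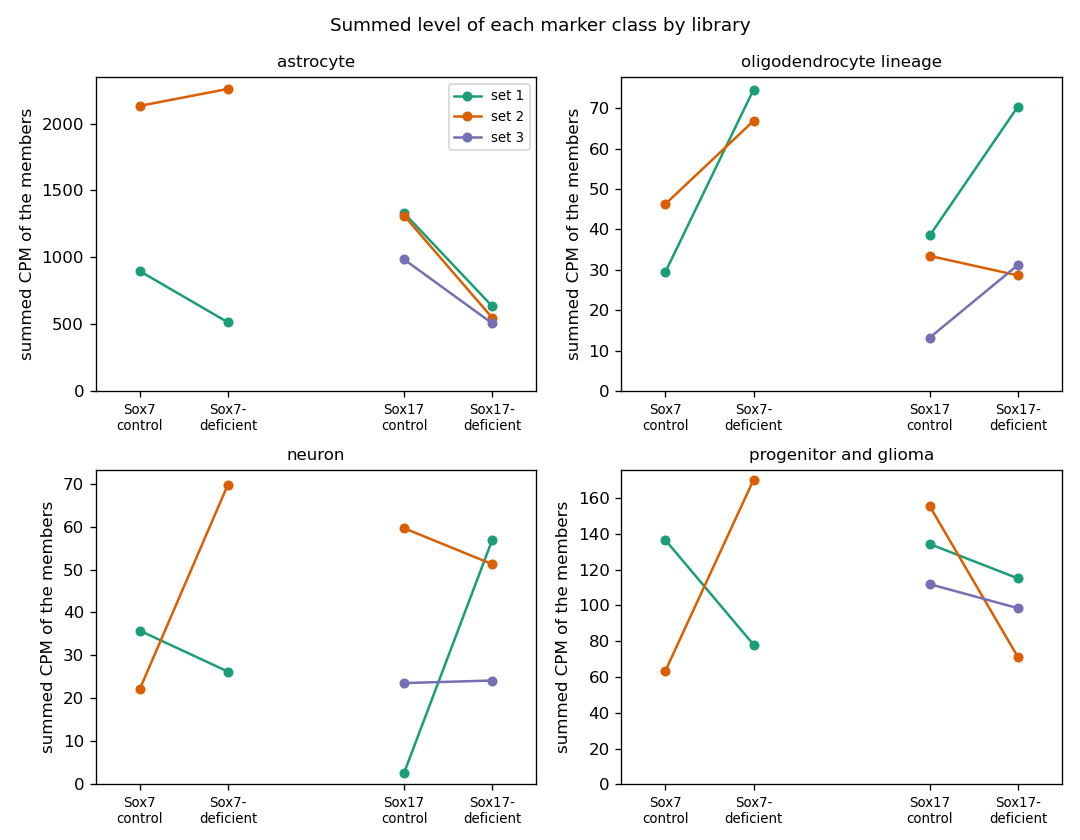
Summed CPM of the members of each class (y axes, linear, from 0) in each library, with lines joining the control and deficient library of a set. In the Sox17 arm the 3 astrocyte lines go from 985 CPM or more to 635 CPM or less, and in the Sox7 arm the set 2 line lies above the set 1 line.

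Glul was the one astrocyte member whose Sox17 groups did not overlap. It encodes glutamine synthetase, which turns glutamate and ammonia into glutamine (GRCm38 chromosome 1, 153899944 to 153909723, plus strand, protein-coding). It was at 1133, 890.5 and 757 CPM in Sox17 controls 1, 2 and 3 and at 356, 334 and 337 CPM in the deficient libraries. All 3 deficient libraries lay close together and below every control. The means were 927 ± 191 CPM and 342 ± 12.2 CPM (SD, n = 3 each), so that the deficient level was 37.0% of control. The fitted log2 fold change was −1.44 (SE 0.47), with an unadjusted edgeR p of 0.00651 and an adjusted p of 1. Over the 18 alternatives it ran from −1.56 to −1.28, with adjusted p from 0.227 to 1.

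The further astrocyte genes did not share that pattern. Slc1a2, the main glutamate transporter of astrocytes (chromosome 2, 102658659 to 102790784, plus strand), was at 85.3, 262 and 79.8 CPM in Sox17 controls and 84.0, 63.2 and 65.6 CPM in deficient libraries. Only set 2 shows a wide gap, and the groups overlap. The glutamate transporter gene Slc1a3 was at 0, 40.7 and 11.9 CPM in controls and 7.97, 3.89 and 10.8 CPM in deficient libraries. Gja1, the gap junction gene, was at 99.8, 68.5 and 123.9 CPM and at 146.8, 113.9 and 76.1 CPM. Here set 3 went the other way from sets 1 and 2. The calcium-binding protein gene S100b ran from 10.3 to 45.9 CPM in controls and from 11.3 to 39.2 CPM in deficient libraries. Gfap, the astrocyte filament, reached at most 0.96 CPM in this arm.

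Markers of mural cells were read beside Glul. All 9 tested pericyte genes had a negative fitted fold change for Sox17 loss (median −1.03; 0 called). From control to deficient library, their summed level was 869 and 217 CPM in Sox17 set 1, 739 and 245 CPM in set 2, and 287 and 249 CPM in set 3. Over the same sets Glul was at 1133 and 356 CPM, 890.5 and 334 CPM, and 757 and 337 CPM. Smooth muscle genes, also mural, were lower in 4 of 5 tested, with sums of 499 and 122 CPM in set 1, 189 and 145 CPM in set 2, and 76.4 and 147 CPM in set 3. Erythroid genes were lower in 5 of 5 (median −2.22), and their sums were 2908 and 429.6 CPM, 309.7 and 71.0 CPM, and 126 and 68.4 CPM in sets 1, 2 and 3. The pericyte and erythroid sums, like Glul, were lower in the deficient library of all 3 sets. Macrophage genes were lower in 15 of 17 tested (median −0.59). None of these genes was called, and the part of these lists in the Glul difference was not tested. Of the 12 tested genes of a second astrocyte list, 5 were higher and 7 lower (median −0.34; 0 called).

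In Sox7 set 1 Glul was at 755 CPM in the control and 378 CPM in the deficient library, and in set 2 at 1419 and 1549.7 CPM. The groups overlapped, with a log2 fold change of −0.17 (SE 0.56, edgeR adjusted p = 1). The value was 0.49 and 0.35 when deficient 1 or control 2 was left out, and −1.52 and −0.58 when deficient 2 or control 1 was left out. For the difference between the Sox7 and Sox17 effects on Glul the log2 value was 1.26 (SE 0.73, edgeR adjusted p = 1). Leaving out Sox7-deficient 2 gave −0.091.

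**Figure D3:**
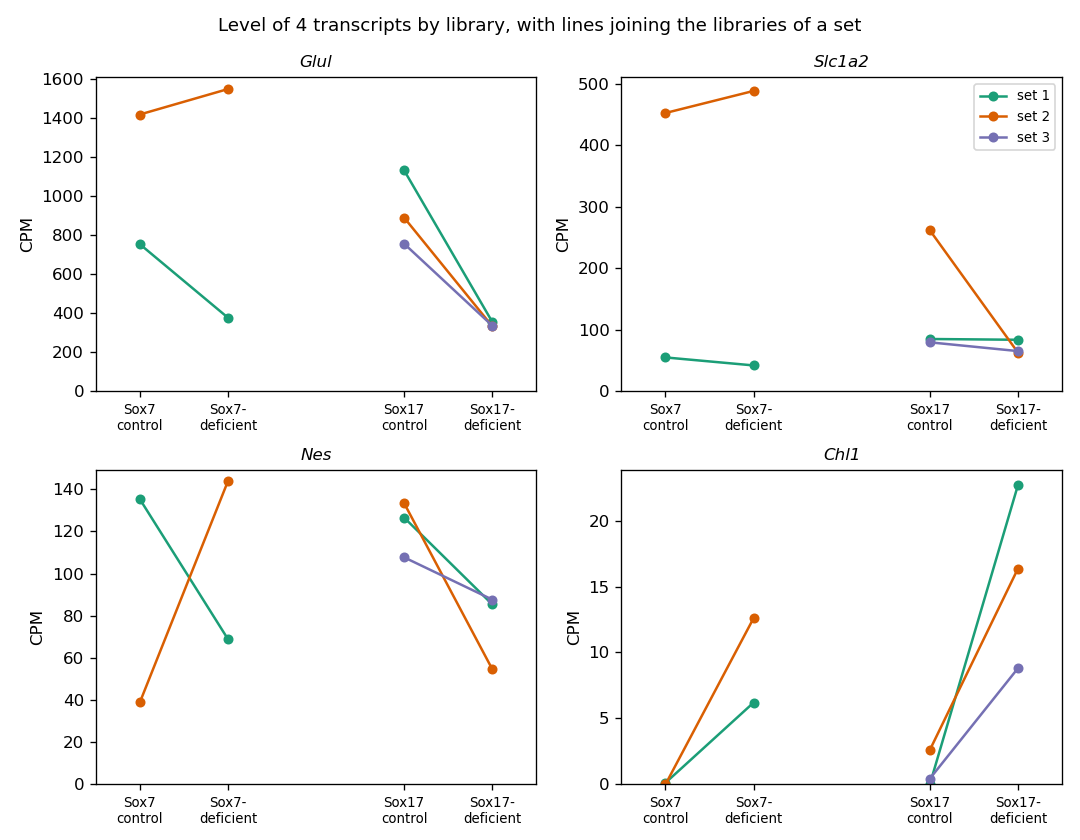
CPM of Glul, Slc1a2, Nes and Chl1 (linear y axes from 0) in the control and deficient libraries of each arm, with lines joining the libraries of a set. For Sox17 the Glul lines end at 334 to 356 CPM in all 3 deficient libraries, and the Chl1 line goes upward in all 5 sets.

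Within the Sox7 arm, astrocyte transcripts differed between the sets. In 6 of 8 astrocyte genes both set 2 libraries lay above both set 1 libraries, and in 1 gene (Aldh1l1) both lay below. Over all 13040 genes tested, 2217 (17%) lay above and 3791 (29.1%) below. Slc1a2 was at 55.3 CPM (control) and 42.3 CPM (deficient) in set 1 and at 453 and 489 CPM in set 2, a 9.65-fold difference of the set means. Slc1a3 was at 11.6 and 21.2 CPM in set 1 and 64.1 and 75.3 CPM in set 2. S100b was at 5.74 and 37.1 CPM against 72.8 and 42.8 CPM. Gfap was at 0.12 CPM and 0 in set 1 and at 4.42 and 1.86 CPM in set 2. In the second astrocyte list, 6 of 15 genes were above and 0 below.

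The 2 Sox7 sets carry different run labels, so set and run cannot be told apart. Macrophage genes went the opposite way, with 12 of 18 below in set 2 and 0 above. Of the pericyte genes 4 of 9 were above and 1 below, and of the pan-endothelial genes 3 of 18 were above and 0 below. Among the other members, Olig1 and Map2 lay above in both set 2 libraries and Mbp, Mag and Rbfox3 lay below. Olig1, a transcription factor gene of the oligodendrocyte lineage, was at 2.51 and 3.46 CPM in set 1 and 14.7 and 29.8 CPM in set 2.

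**Figure D4:**
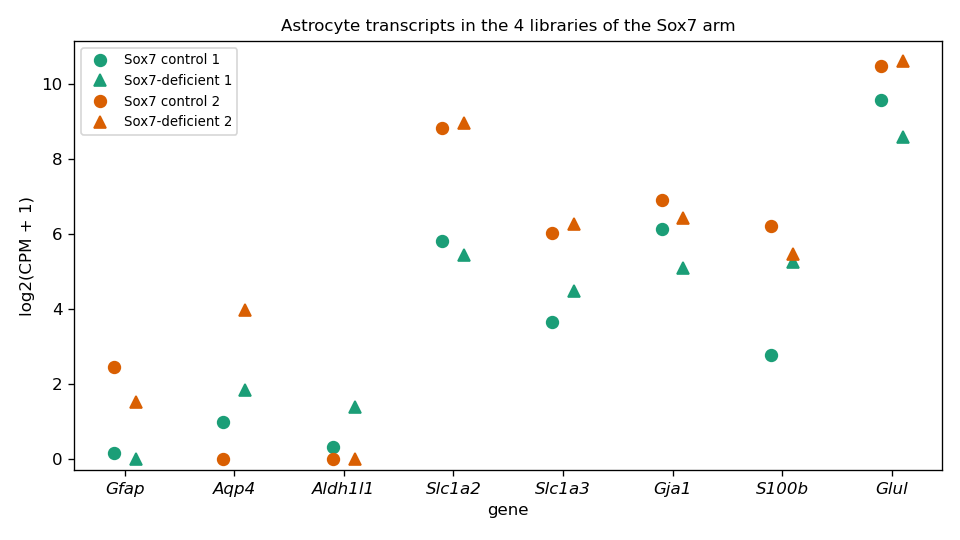
Level of the 8 astrocyte transcripts, as log2(CPM + 1), in the 4 libraries of the Sox7 arm. Green marks set 1 and orange set 2, with circles for control and triangles for deficient libraries. For Slc1a2 and Slc1a3 both orange symbols lie above both green symbols, and for Aldh1l1 they lie at 0.

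Aqp4, the water channel of astrocyte end-feet, reached at most 14.7 CPM. In the Sox7 arm it was at 0.96 CPM and 0 in controls 1 and 2 and at 2.60 and 14.72 CPM in deficient libraries, so the groups did not overlap. The log2 fold change was 4.16 (SE 3.47, edgeR adjusted p = 1). Leaving out Sox7-deficient 2 gave 2.42. Without Sox7 control 1 the remaining control was at 0, and no fold is given. In the Sox17 arm Aqp4 was at 0, 4.26 and 0.37 CPM in controls and at 0 in all 3 deficient libraries. Pooled over the group, the deficient level was at least 32.7-fold lower than in controls, and 54 of the 60 control counts came from control 2. Without control 2 the bound was 5.53-fold. Sox17 control 1 was at 0 as well, so the groups overlapped. Aldh1l1, a folate enzyme gene of astrocytes, reached the floor in 3 libraries.

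Myelin and precursor genes were at low levels. Cnp, which encodes an enzyme of myelinating cells, was at 17.2 and 5.71 CPM in Sox7 controls and 37.4 and 30.4 CPM in deficient libraries. The groups did not overlap, and the log2 fold change was 1.56 (SE 1.02, edgeR adjusted p = 1). Without Sox7 control 1 it was 2.54, and without Sox7 control 2 it was 0.97. With Sox17 loss Cnp was at 13.6, 13.3 and 11.1 CPM in controls and 27.9, 16.7 and 8.06 CPM in deficient libraries (log2 0.47, SE 0.82, adjusted p = 1). That value was −0.034 without Sox17-deficient 1 and 0.82 without Sox17-deficient 3.

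The mature myelin genes were mostly at or near 0. Mbp, the gene of myelin basic protein, ranged from 0 to 10.8 CPM over the libraries. Mobp had counts in 1 library. Mag, the gene of myelin-associated glycoprotein, was at 22.9 CPM in Sox7-deficient 1 and 14.1 CPM in Sox17 control 1 and at 2.15 CPM or less in the other 8. Its pooled level was at least 17.5-fold lower in Sox17-deficient libraries, all at 0, than in controls, where 31 of 32 counts came from control 1. Leaving out control 1 leaves a single count, so no bound is given. In a second oligodendrocyte list 8 of 15 genes were tested, with 5 higher for Sox7 loss and 3 higher for Sox17 loss (0 called in each). Its most abundant member, Mal, ran from 91.6 to 402 CPM, while Aspa and Ugt8a were at 0 in every library.

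Precursor genes came and went between libraries. Gpr17, a receptor gene of differentiating precursors, was at 0.96 and 12.7 CPM in Sox7 controls and 0 in both deficient libraries, a pooled level at least 36.7-fold lower. Control 2 held 138 of the 146 control counts, and without it the bound was 4.62-fold. For Sox17 it was at 0 in all 3 controls and at 15.7, 0 and 9.92 CPM in deficient libraries, at least 39.5-fold higher. The bound was 19.0-fold without deficient 1. The arms thus went in opposite directions. The test of that difference gave an unadjusted edgeR p of 0.00503 and an adjusted p of 1, while DESeq2 gave an adjusted p of 0.0524. Gpr17 was at 0 in every Sox7-deficient and Sox17 control library and entered the test only through libraries of the other groups. These p-values therefore lend no support to opposite effects. Over all alternatives the adjusted p ran from 0.0524 to 1. Olig2 was at 13.2 CPM in Sox7 control 2 and 9.98 CPM in Sox17 control 1 and at 5.91 CPM or less elsewhere. Pdgfra, the receptor gene of precursors and of fibroblasts, had at most 22 counts in a library.

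Neuronal transcripts were sparse. Snap25 and Syt1, which encode parts of the synaptic release machinery, were at 0 in both Sox7 controls. Syt1 was at 2.74 and 5.70 CPM in the Sox7-deficient libraries, at least 27.4-fold higher when pooled and 17.6-fold without deficient 2. Snap25 was at 0.14 and 4.38 CPM there, at least 15.0-fold higher, and 33 of its 34 counts came from deficient 2, without which no bound can be given. Among Sox17 libraries Snap25 was at 7.93 CPM in deficient 3 and at 0 in the other 5 libraries. Syt1 was at 2.59 CPM in deficient 2, 0.12 CPM in control 3 and 0 elsewhere. The edgeR adjusted p was 1 for both genes in both comparisons.

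Stmn2, a microtubule regulator gene of growing axons, was the neuronal member with the most CPM. It was at 17.1 CPM and 0 in Sox7 controls and 11.97 and 14.9 CPM in deficient libraries (log2 0.65, SE 1.80, edgeR adjusted p = 1). Without Sox7 control 2 the fitted value was −0.35, and without Sox7 control 1 the remaining control was at 0, so that no fold is given. In Sox17 libraries it was at 0.45, 37.4 and 11.4 CPM in controls and 16.9, 33.7 and 5.83 CPM in deficient libraries (log2 0.18, SE 1.46, adjusted p = 1). Leaving out Sox17 control 1, control 3 or deficient 2 gave −0.39, −0.022 and −0.54, and leaving out control 2 or deficient 3 gave 1.61 and 0.61. Map2, a dendrite microtubule gene, was highest in Sox7-deficient 2 at 44.7 CPM and at 0 in Sox17 control 1 and deficient 3. Tubb3, neuronal beta-tubulin, ranged from 0.13 to 19.2 CPM, and the neuronal nuclear gene Rbfox3 from 0 to 9.30 CPM. The neurofilament genes Nefl and Nefm had 3 or more counts in 1 library each. In a second neuronal list 9 of 20 genes were tested, with 4 higher and 5 lower for Sox7 loss and 6 higher and 3 lower for Sox17 loss (0 called in each). Of the 20, 4 reached the floor in every library and 3 were at 0 throughout, among them the vesicular transporter gene Slc32a1. The list summed to 50.3 to 193 CPM, and its most abundant member, Nrgn, ran from 11.8 to 73.7 CPM.

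Among progenitor genes, Nes and Chl1 separated the Sox17 groups in opposite directions. Nes (chromosome 3, 87971078 to 87980451, plus strand) was at 127, 133 and 108 CPM in Sox17 controls 1, 2 and 3 and at 85.4, 54.6 and 87.7 CPM in the deficient libraries. The groups did not overlap, and the log2 fold change was −0.69 (SE 0.47, edgeR adjusted p = 1). In the Sox7 arm it was at 135 and 68.9 CPM in set 1 and 38.9 and 144 CPM in set 2. The sets went opposite ways there (log2 0.29, SE 0.58, adjusted p = 1). Without Sox7 control 2 and deficient 2 the value was −0.35 and −0.34, and without control 1 and deficient 1 it was 1.43 and 0.69.

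Chl1 was the only member higher in the deficient library of all 5 sets. It encodes a neural cell adhesion molecule of the L1 family (chromosome 6, 103510586 to 103750211, plus strand, protein-coding). It was at 0.12 CPM (1 count) and 0 in Sox7 controls 1 and 2 and at 6.20 and 12.6 CPM (43 and 95 counts) in the deficient libraries. In the Sox17 arm it was at 0, 2.61 and 0.43 CPM (0, 33 and 7 counts) in controls and 22.7, 16.4 and 8.80 CPM (165, 580 and 71 counts) in deficient libraries. Thus neither arm's groups overlapped. Over all tested genes 3.32% were higher and 3.34% lower in all 5 sets, 0 members were lower in all 5, and 0.529% were higher without overlap in both arms.

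The size of the Chl1 difference was loosely determined. The pooled ratio in the Sox7 arm was 183, with a 95% interval of 32.3 to 7289.6 from an exact binomial calculation that covers counting error only. For Sox17 the ratio was 12.5 (9.07 to 17.6). The fitted log2 fold change was 7.14 (SE 2.66) for Sox7 loss and 3.89 (SE 1.81) for Sox17 loss, with unadjusted edgeR p of 0.0150 and 0.0451 and an adjusted p of 1 for each. Over the alternatives the adjusted p ran from 0.515 to 1 and from 0.387 to 1. With Sox7 control 1 kept, the Sox7 value ran from 6.17 to 7.54 over its alternatives. Without it the remaining control was at 0. The Sox17 value was 5.80 without Sox17 control 2. The difference between the arms was 3.25 (SE 2.73, adjusted p = 1). The deficient library was the deeper one in Sox17 sets 1 and 2 and the shallower one in the other 3 sets. The neuronal class was higher in 3 of these 5 sets and the oligodendrocyte class in 4. Their part in the Chl1 difference was not tested.

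The remaining progenitor genes were intermittent. Hes5, a Notch target gene of neural progenitors, was at 0 in both Sox7 controls and at 1.01 and 13.1 CPM in deficient libraries, at least 46.9-fold higher when pooled. Deficient 2 held 99 of the 106 counts, and without it the bound was 6.47-fold. With Sox17 loss it was at 0, 11.5 and 2.04 CPM in controls and 0 in all 3 deficient libraries, at least 97.7-fold lower. Control 2 held 146 of the 179 control counts, and without it the bound was 30.4-fold. The test of the difference between arms gave an edgeR adjusted p of 1 and a DESeq2 adjusted p of 0.0627. With Hes5 at 0 in every Sox7 control and Sox17-deficient library, these p-values lend no support to opposite effects. Ptprz1, a receptor phosphatase gene of glioma and precursor cells, was at 10.8 CPM in Sox7 control 2 and at 4.26 CPM or less elsewhere. Fabp7, a fatty acid-binding protein gene of radial glia, was highest in Sox7 control 2 at 13.9 CPM. Dcx, which marks migrating young neurons, had 4 counts in each of 2 libraries and 0 in the other 8. A second progenitor list had 10 of 15 genes tested, with 3 higher and 7 lower for Sox7 loss and 8 higher and 2 lower for Sox17 loss (0 called in each).

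As a group the tested members showed no common direction. For Sox7 loss 16 of 25 had a positive fitted fold change and 9 a negative one, with a median of 0.35 against 0.04 over all genes, of which 51.9% were positive. For Sox17 loss the numbers were again 16 and 9, with a median of 0.29 against 0.05 and 52.8%. With the 5 members in each comparison whose one group was at 0 set to their bound, both medians stayed at 0.35 and 0.29. By class, the medians for Sox17 loss were −0.40 for astrocyte, 0.76 for oligodendrocyte, 1.37 for neuronal and −0.69 for progenitor members. For Sox7 loss they were 0.04, 1.26, 0.70 and 0.29. Groups did not overlap in 7 of the 25 for Sox7 loss (6 higher, 1 lower), where 12.7% of all genes were higher and 12.8% lower without overlap. For Sox17 loss this held for 3 of 25 (1 higher, 2 lower), against 4.13% and 4.23%. Members that passed the filter through a single group had to differ, so these counts describe the 25 and carry no test.

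For the difference between the Sox7 and Sox17 effects, 0 of 25 members were called by edgeR (share over all genes 0.0% in each direction) and 0 by DESeq2 (0.12%, 15 genes), and 4 had an unadjusted p under 0.05, where the share over all genes was 2.86%. These were Aqp4, Mag, Gpr17 and Hes5, each at 0 in every library of at least 1 group. Their fitted values depend on the prior count and are not given, and their number carries no test.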

How the data were processed

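Counts were analysed for 10 libraries of purified glioma endothelial cells. Libraries were made from 500 ng of Trizol-extracted RNA with a Lexogen Quant-Seq kit, per the labels' protocols. The authors deposited raw whole-number counts for each gene symbol. Bowtie2, edgeR and build mm10 are named per the submitters' processing notes; annotation, counting tool, strand setting and the roles of these tools are not given in the sources used here. The 1183 symbols found in the Sox17 files alone, all starting with Mir, were left out, and repeated lines of a symbol were summed.

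Groups and set numbers came from the sample titles. Libraries were scaled by TMM and fitted together in edgeR 4.0.16 (R 4.3.3) with a mean per group and a robust quasi-likelihood test. filterByExpr kept 13040 genes and removed 10198. P-values were adjusted by the Benjamini-Hochberg method across all tested genes (threshold 0.05). Standard errors were taken as |log2 fold change| / sqrt(F). CPM uses the TMM-scaled library size. Alternatives were DESeq2 1.42.0, limma-voom 3.58.1, other scalings, no filter, single arms, a replicate block and each library left out. The fit was run on simulated data with less spread than these libraries, and with changes placed only in genes of higher level. That run checks the code and does not show the power of the fit here. Gene positions come from the GENCODE vM21 annotation of GRCm38 (mm10).

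Shared run labels in the descriptions tie the libraries of 4 of the 5 sets, and the design text speaks of sets, so set numbers were treated as pairs. Deviations from group means correlated over genes at 0.21 in the Sox7 sets, where 2 libraries a group give both sets 1 value, and at 0.0604, 0.057 and 0.0431 in Sox17 sets 1, 2 and 3.

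The members and lists were chosen with earlier results of these data known. All 31 members are named. A fold change is given where groups did not overlap or the unadjusted p was under 0.05, and for the member of each class with the most CPM. Other members are given as CPM. The difference between arms for Chl1 was added after its values were seen.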

Additional observations from a re-analysis of the deposited data

How the results depend on the processing

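No member was called in the 18 alternative fits of the Sox7 and of the Sox17 comparison or in the 17 of the difference between arms, while these fits called up to 58 of all genes. The replicate block called 0 members and, over all genes, 1 for Sox7 loss, 6 for Sox17 loss and 3 for the difference, where the unpaired fit called 0. With the block Glul had a log2 fold change of −1.42 for Sox17 loss (edgeR adjusted p = 0.227). The lowest adjusted p of any member in any fit was 0.0524. Leaving out the member with the most CPM moved 2 class sums for Sox17 loss, the astrocyte mean log2 ratio to −0.30 and the progenitor one to 0.97; both follow from the size of Glul and Nes in those sums. The other class sums, and the counts of members without overlap under the scalings tried after seeing the data, stayed within the spread or within 1.5 times. That spread was wide, so these sums are not shown to be free of their top member. For Sox7 loss the progenitor mean log2 ratio was 0.31 ± 1.57 (SD, n = 2) and 1.59 without Nes. Without Cnp the oligodendrocyte log2 ratio of Sox7 set 2 went from 0.53 to −0.15, and the Sox7 groups came to overlap. Leaving out each library in turn gave ranges that cross 0 for Sox7 loss in Glul (−1.52 to 0.49), Stmn2 (−0.35 to 10.28) and Nes (−0.35 to 1.43), for Sox17 loss in Cnp (−0.034 to 0.82) and Stmn2 (−0.54 to 1.61), and for the difference between arms in Glul (−0.091 to 1.94) and Stmn2 (−0.98 to 10.11). The Stmn2 values of 10.28 and 10.11 are set against 1 control at 0, depend on the prior count and are no estimate. Where this leaves 1 library in a group, that library is assumed to vary like the others. With a pseudocount of 0.25 or 5 the Chl1 difference was positive in all 5 sets. Bounds of folds against a group at 0, with each library left out, were added after seeing the data. A count of 0 in Sox17 control 1 allows up to 1.36 CPM.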
